A study of Mus musculus with 36 samples.

Results

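The complement system is described here through 7 genes: C3, C4b, C1s1, C1ra, Cfb, Serping1 and Cd55. They were chosen by name, as the complement genes that stromal cells are known to make, out of 48795 genes in the deposited count table, and were found by matching Ensembl identifiers to mouse symbols. Complement is a cascade of plasma and tissue proteins. In its classical pathway the proteases C1r and C1s cut C4 and C2 to build an enzyme that cleaves C3, and in its alternative pathway factor B takes the part of C2 on C3 that is already deposited. C1 inhibitor (Serping1) blocks C1r and C1s, and CD55 on the cell surface speeds the decay of the C3-cleaving enzymes. The liver makes most of the circulating proteins, and fibroblasts and other stromal cells are known local sources.

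The cells were mouse lung pericyte-like cells, grown out of lung digests. Cells bearing CD31, CD45 or CD326 (endothelial, leukocyte and epithelial surface markers) had been removed, cells bearing PDGFRβ, a receptor of pericytes and fibroblasts, had been kept, and these were cultured again before use. In the media-only groups they received reduced-serum medium with an equal volume of buffered saline. In the uninjured and injured BALF groups the saline was replaced by bronchoalveolar lavage fluid from uninjured or injured lungs. RNA was taken after 6 or 24 h. Each of these 6 groups held 3 female and 3 male libraries, numbered 1 to 3 within sex, which made 36 libraries with total counts of 17134840 to 35991683. Mouse strain, age and the kind of injury are not given in the labels. Nothing in the labels says that the libraries of 1 group stand for separate cultures or mice, and p-values therefore reflect the spread among these libraries, which may be technical.

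Levels are given in CPM, a gene's counts scaled to a common library total with TMM factors. The 12 pericyte markers summed to 595 to 2570 CPM over all libraries, with Higd1b at 0 in every group, and the 10 lung fibroblast markers to 298 to 686 CPM, so the markers do not separate the cells from fibroblasts. The 7 smooth muscle markers summed to 5400 to 19000 CPM. Macrophage markers reached 17.4 to 88.9 CPM, endothelial markers 7.73 to 186, mesothelial markers 18.3 to 239, neutrophil markers at most 9.14 and epithelial markers at most 1.08. The RNA is a bulk measure, in which fewer cells of a type and less RNA per cell cannot be told apart.

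Several libraries stood apart before any complement gene was considered. Female libraries numbered 3 differed from numbers 1 and 2 at 6 h (SD of the log2 differences over genes 0.354 to 0.424, against 0.139 to 0.157 between numbers 1 and 2), and male libraries numbered 3 did so by 0.25 to 0.36. At 24 h female number 1 stood apart in media, at 0.627 and 0.674 from numbers 2 and 3, which differed by 0.342. This was the widest separation in any group. At 24 h in uninjured BALF the female library numbered 1 also differed from the other 2. Its deviations from the group mean correlated at 0.759 with those of female number 3 in injured BALF at 24 h, and at -0.491 and -0.582 with those of female numbers 1 and 2 there. The labels were used as given, and the differences of injured from uninjured BALF and of uninjured BALF from media at 24 h in C3, C4b and Cd55 are given with and without this library. Smooth muscle markers summed lower in female libraries numbered 3 than in the other females of their group at 6 h, at 10800 to 12000 CPM against 14300 to 19000.

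The male libraries numbered 3 were unlike each other. In media at both times and in uninjured BALF at 24 h their endothelial markers summed to 7.73 to 9.11 CPM and their mesothelial markers to 18.3 to 22.6 CPM. In uninjured BALF at 6 h and in injured BALF at both times the sums were 163 to 186 and 162 to 239 CPM. The 3 libraries with low sums, with female number 2 in media at 24 h (endothelial markers 14.9 CPM), are the 4 whose description numbers in the labels start differently from the rest. Where libraries of the same sex and number are compared, male number 3 therefore sets a library with low sums beside one with high sums in BALF against media at 6 h, in injured BALF against either group at 24 h and in 24 against 6 h in uninjured BALF. Same-numbered libraries were taken as paired only in injured against uninjured BALF at 6 h and in 24 against 6 h in injured BALF. Counts by number in the other comparisons are not paired evidence.

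The promoters of C3 and C1s1 are shown because these are, per length, the gene with the largest difference between groups and the more abundant of the classical proteases, and because both hold a match to the C/EBP motif. RefSeq's GRCm38.p6 promoter table held 4 of the 7 genes (C3, C1s1, C1ra and Cd55). The 250 bases before each start are printed 5′ to 3′ on the gene's own strand, with the C/EBP match in capitals. C3 lies on the minus strand of chromosome 17, and the window is chr17:57228137-57228386. C1s1 lies on the minus strand of chromosome 6, and the window is chr6:124542360-124542609.
C3 promoter: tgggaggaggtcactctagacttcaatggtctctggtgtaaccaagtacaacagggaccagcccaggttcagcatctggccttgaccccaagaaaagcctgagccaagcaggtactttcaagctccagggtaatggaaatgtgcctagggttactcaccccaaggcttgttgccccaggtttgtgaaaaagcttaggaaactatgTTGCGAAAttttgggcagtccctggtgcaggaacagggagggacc
C1s1 promoter: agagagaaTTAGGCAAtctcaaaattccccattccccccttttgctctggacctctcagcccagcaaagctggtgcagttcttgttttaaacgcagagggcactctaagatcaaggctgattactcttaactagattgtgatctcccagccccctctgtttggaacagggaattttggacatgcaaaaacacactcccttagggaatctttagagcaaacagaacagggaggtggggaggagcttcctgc

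The C/EBP motif was searched as TTGCNNAA on both strands. In C3 the match spans bases -45 to -38 from the start on the gene's strand, and in C1s1 bases -242 to -235 on the opposite strand. The motif was present in 9.56% of 32851 mouse promoter windows of the same length, so a match is common. The C1ra window (chr6:124512371-124512620, plus strand) follows RefSeq's start and lies mostly inside the GENCODE gene, which begins at 124512405, so it is largely not upstream sequence by that annotation. None of the 4 windows held the STAT motif TTCNNNGAA, the interferon response element (GAAA, any 2 bases, GAAA), the AP-1 motif TGANTCA or the NF-kB motif, which occurred in 7.02%, 2.98%, 6.75% and 7.25% of all windows. These are matches of letters and not measured binding.

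Per kilobase of exon, Serping1 and C1s1 had the highest levels in media at 6 h. Serping1 stood at 19.5 ± 3.77 CPM per kb (mean ± SD, n = 6), C1s1 at 15.3 ± 5.92, C3 at 7.55 ± 4.55, C1ra at 5.20 ± 2.26, Cd55 at 2.28 ± 1.15, C4b at 1.52 ± 2.04 and Cfb at 0.0121 ± 0.0154. In this order the gap between neighbours was larger than both SDs for C1s1 over C3 and for C1ra over Cd55, and for the other neighbours it was not. Even so, every C4b library (2.31 CPM or above) lay above every Cfb library (0.102 CPM or below). The C4b SD rests mainly on 1 library, at 32.2 CPM. In injured BALF at 24 h C3 came first at 56.5 ± 34.1 CPM per kb, ahead of Serping1 at 23.6 ± 12.5 and C1s1 at 23.4 ± 10.4. C1ra (7.64 ± 3.80), Cd55 (5.12 ± 3.19), C4b (1.54 ± 2.58) and Cfb (0.0520 ± 0.0521) followed in the order they had in media.

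**Figure D1:**
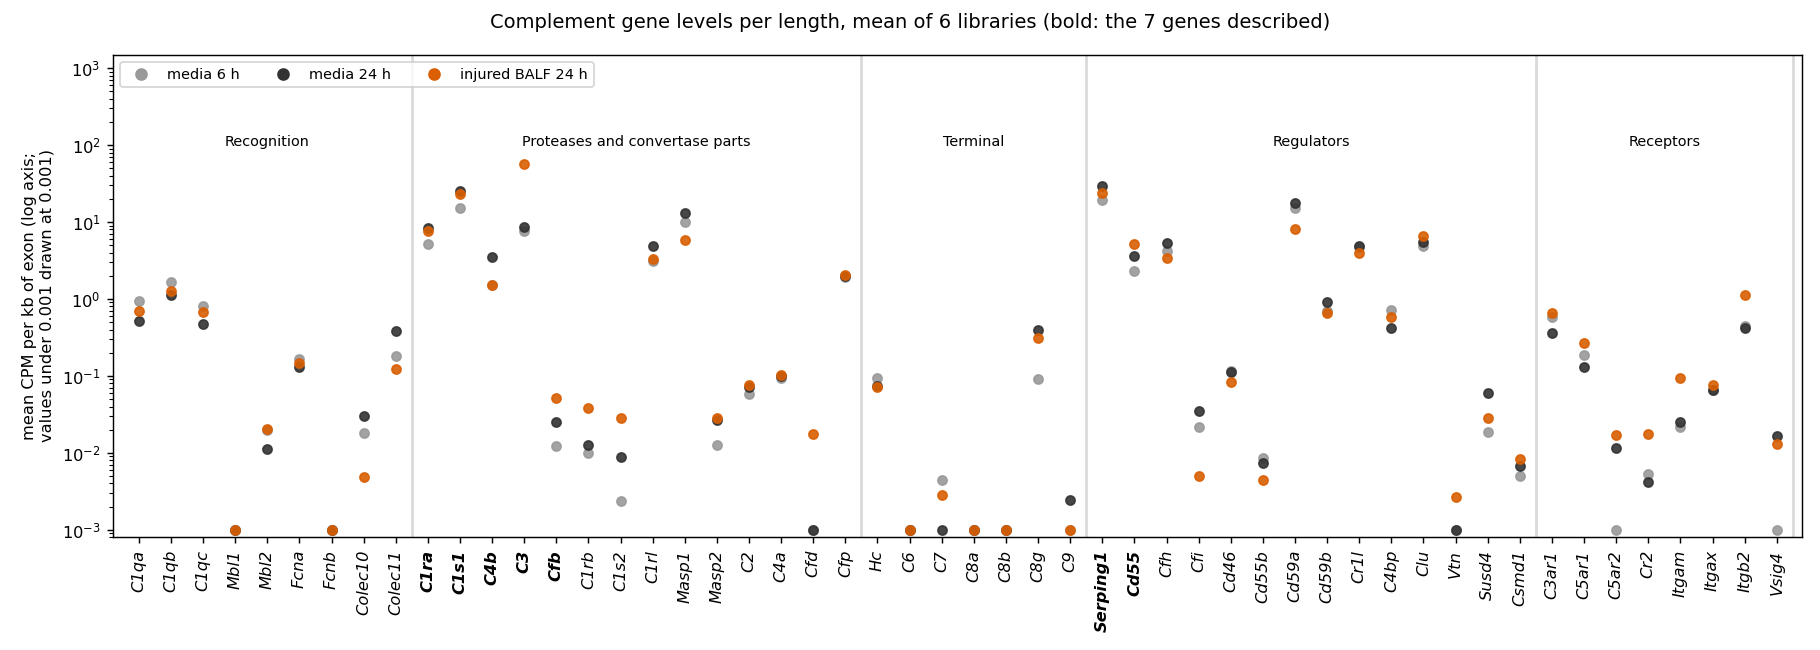
Mean level per kilobase of exon (log axis, n = 6 libraries) of the 7 genes (bold) and 45 other complement genes in media at 6 h, media at 24 h and injured BALF at 24 h, ordered by role; means under 0.001 are drawn at 0.001. C3 in injured BALF at 24 h has the highest point, at 56.5 CPM per kb, and the terminal components lie at 0.39 CPM per kb or below.

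Differences were tested with edgeR's quasi-likelihood test over 15901 genes, with adjusted p under 0.05 as the threshold, and values after ± on log2 fold changes are standard errors. 6 of the 7 genes had enough counts to be tested. Cfb did not, with 83 counts over the 36 libraries.

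C3 encodes the component on which all pathways meet, and it was highest in injured BALF at 24 h. In media it measured 8.28, 41.4 and 72.3 CPM (lowest, median and highest of 6 libraries) at 6 h and 8.01, 34.4 and 128 at 24 h. In uninjured BALF it measured 8.47, 50.2 and 78.4 CPM at 6 h and 12.4, 61.3 and 244 at 24 h. In injured BALF it measured 23.2, 73.4 and 99.0 CPM at 6 h and 134, 255 and 628 at 24 h. The 6 libraries of injured BALF at 24 h lay above every library in media at 24 h and above every library in injured BALF at 6 h, and the range in uninjured BALF at 24 h overlapped theirs through the female library numbered 1. How many of all genes tested lay apart between groups was not counted, here or for the separations below.

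Against media at 24 h, C3 rose in injured BALF by 2.80 ± 0.64 on the log2 scale (6.96-fold, edgeR adjusted p = 0.0018), and it was higher in 6 of 6 libraries of the same sex and number, by 3.34 to 22.3 times. It was the 1 member of 6 tested that changed in this comparison, in which 23.7% of all genes tested did. Without the libraries numbered 2 the difference was 2.96 with adjusted p = 0.074. It was 2.54 (adjusted p = 0.0048) without female number 1 in media, and 2.60 (adjusted p = 0.022) without the 4 libraries of differing description number. At 6 h the same comparison gave 0.75 ± 0.60 (adjusted p = 0.40), with C3 higher in 6 of 6. No member changed at 6 h by edgeR or DESeq2 without a replicate block, and 0 of 6 had an unadjusted p under 0.05, where 25.2% of all genes tested changed.

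Against uninjured BALF at 24 h, C3 was 1.89 ± 0.62 higher on the log2 scale in injured BALF (95% interval 0.62 to 3.16, edgeR adjusted p = 0.079), which missed the threshold. DESeq2 called it (1.90, adjusted p = 0.029), as did edgeR without the low-count filter (adjusted p = 0.045). Without the female uninjured library numbered 1, at 244 CPM, the difference was 2.54 (adjusted p = 0.021), and without the female injured library numbered 3, at 628 CPM, it was 1.40 (adjusted p = 0.18). C3 was higher in 5 of 6 libraries of the same sex and number. In males the groups did not overlap: 39.5, 50.0 and 72.6 CPM in uninjured and 238, 272 and 293 CPM in injured BALF. The effect in females minus that in males was -0.83 ± 1.19 on the log2 scale (adjusted p = 1), so a difference between the sexes was not detectable.

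At 6 h C3 was 0.60 ± 0.60 higher in injured than in uninjured BALF (edgeR adjusted p = 0.77), and it was higher in 6 of 6 libraries of the same sex and number, by 1.26 to 2.74 times. Libraries with the same number deviated together in this comparison (correlations 0.333 to 0.654 in 6 of 6), so the replicate numbers were also fitted as a block. With the block C3 differed by 0.74 ± 0.10 (adjusted p = 0.0002), and 23.7% of all genes tested were then called. In males the 3 injured libraries (73.3, 73.6 and 86.6 CPM) lay above the 3 uninjured ones (48.1, 52.2 and 55.9 CPM). In females the level in each number ran from 8.47 to 78.4 CPM in uninjured BALF, a wider spread than the difference between treatments.

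From 6 to 24 h in injured BALF, C3 rose by 2.17 ± 0.62 on the log2 scale (4.49-fold, edgeR adjusted p = 0.010) and in 6 of 6 libraries of the same sex and number, by 3.24 to 7.68 times. It was the 1 member called, and 27% of all genes tested were called. The call was lost without the female library numbered 3 in injured BALF at 24 h (1.67, adjusted p = 0.055) and without the libraries numbered 2 (2.28, adjusted p = 0.13). It was also lost when libraries 1 and 2 of each group were summed (2.21, adjusted p = 0.065). In injured BALF these differed by an SD of the log2 differences of 0.12 to 0.232. In females at 24 h they were not close, at 0.627 in media and 0.493 in uninjured BALF. The replicate numbers paired here too (correlations 0.228 to 0.593), and with the block C3 rose by 2.14 ± 0.13 (adjusted p = 1.3e-05). Over the same hours C3 differed by 0.11 ± 0.60 in media (adjusted p = 0.93) and by 0.87 ± 0.60 in uninjured BALF (adjusted p = 0.29), which was 0.23 (adjusted p = 0.83) without the female library numbered 1 at 24 h. In these comparisons 0 of 6 members changed by edgeR and by DESeq2, with 1 each (C1s1) at an unadjusted p under 0.05, where 6.84% and 30.7% of all genes tested changed. The difference between injured and uninjured BALF was 1.29 ± 0.85 larger at 24 h than at 6 h, which did not pass (adjusted p = 0.84). That value was 1.94 without female uninjured number 1 at 24 h, 0.80 without female injured number 3 at 24 h and 0.58 without female uninjured number 3 at 6 h, and it ran from 0.10 to 2.24 when 1 number of every group was left out. This test called 0 of 6 members, also by DESeq2, 0 at an unadjusted p under 0.05, and 0.239% of all genes tested.

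**Figure D2:**
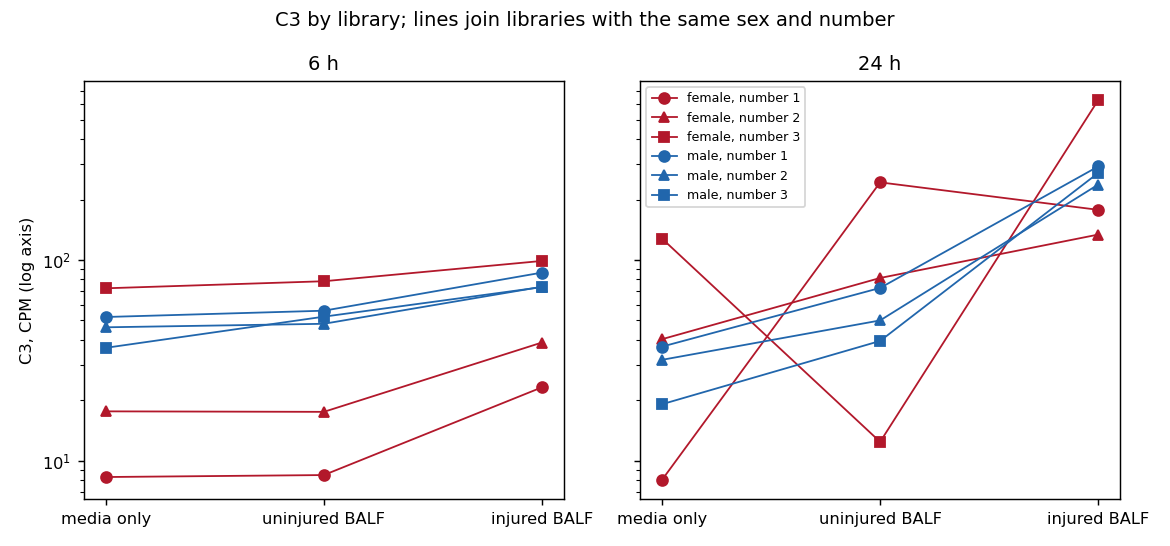
C3 in CPM (log axis) by treatment at 6 h (left) and 24 h (right); each line joins the 3 libraries of the same sex and number. At 6 h all 6 lines end higher in injured than in uninjured BALF, and at 24 h the female lines numbered 1 and 3 cross, at 244 and 12.4 CPM in uninjured BALF.

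Other markers moved with C3 at 24 h. Pericyte markers summed to 595 to 1000 CPM in injured BALF, 968 to 1520 in uninjured BALF and 1360 to 2570 in media. Of the 10 tested, 6 were lower in injured BALF than in media and 3 lower than in uninjured BALF (edgeR). Of 8 fibroblast markers 3 were lower than in media and 0 lower than in uninjured BALF. Among all genes tested, 12.2% were lower in injured BALF than in media and 2.04% lower than in uninjured BALF. Smooth muscle markers summed to 5400 to 9550 CPM in injured BALF, 5580 to 14600 in uninjured BALF and 9170 to 17000 in media. Neutrophil markers summed to 5.48 to 9.14, 0.762 to 4.74 and 0.348 to 1.93 CPM in the same groups, a low level throughout. Macrophage markers overlapped, at 63.6 to 81.6, 21 to 88.9 and 17.4 to 59.2 CPM. Their part in the C3 result was not tested.

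The classical pathway proteases C1ra and C1s1 were present in every library and did not pass the test in any comparison of treatments. C1ra, which activates C1s, measured 9.09, 14.3 and 27.2 CPM (lowest, median, highest) in media, 7.51, 10.0 and 17.6 in uninjured BALF and 8.87, 11.9 and 19.1 in injured BALF at 6 h. At 24 h it measured 12.6, 24.0 and 40.4, then 9.12, 16.2 and 34.7, then 10.3, 19.0 and 42.7 CPM. C1s1, which cuts C4 and C2, ran from 25.0 to 77.7 CPM at 6 h and from 30.7 to 131 at 24 h. All groups overlapped for both genes. Injured minus uninjured BALF was 0.19 ± 0.38 for C1ra and 0.15 ± 0.34 for C1s1 at 6 h, and 0.29 ± 0.37 and 0.17 ± 0.34 at 24 h (edgeR adjusted p 0.78 to 0.92). In uninjured BALF at 6 h both were below the media library of the same sex and number in 6 of 6 cases, by a fitted -0.42 ± 0.38 for C1ra (adjusted p = 0.48) and -0.32 ± 0.34 for C1s1 (adjusted p = 0.58). The numbers do not pair in this comparison. In male number 3 endothelial markers summed to 8.97 CPM in media and 182 in uninjured BALF.

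Both proteases were higher at 24 h than at 6 h in injured BALF, C1ra by 0.82 ± 0.37 (edgeR adjusted p = 0.11) and C1s1 by 0.81 ± 0.34 (adjusted p = 0.081). With the replicate numbers as a block the differences were 0.76 ± 0.16 (adjusted p = 0.0047) and 0.74 ± 0.12 (adjusted p = 0.0014), where 39.2% of all genes tested were called. Leaving out the female library numbered 2 in injured BALF at 24 h also brought both under the threshold, at 1.00 (adjusted p = 0.047) and 0.97 (adjusted p = 0.040). These were the highest values with any single library left out. The lowest was 0.44 for each gene, and the highest adjusted p was 0.45 for C1ra and 0.40 for C1s1. In media C1ra and C1s1 differed over the same hours by 0.656 ± 0.175 and 0.673 ± 0.221 with a block. In uninjured BALF they differed by 0.61 ± 0.378 and 0.645 ± 0.316. The numbers do not pair in media or uninjured BALF. The fitted differences were thus of similar size in each treatment. With the block C1ra in media passed (edgeR adjusted p = 0.043), where 11.6% of all genes tested were called. C1s1 in media (adjusted p = 0.082) and both genes in uninjured BALF (0.29 and 0.19) did not pass. In media without a block, C1ra and C1s1 differed by 1.284 and 1.228 in females and by 0.119 and 0.284 in males. A rise in every treatment is therefore not established.

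C1ra (GRCm38 chromosome 6, 124512405 to 124523443, plus strand) and C1s1 (124530345 to 124542359, minus strand) are neighbours, and they ran together across libraries. Pearson's r between their log2 CPM was 0.957 over the 36 libraries, the highest of the 15 pairs among the 6 tested members. For C1ra it was also the highest r with any gene tested, followed by Lama4 (0.936) and Larp6 (0.902). For C1s1, C1ra was followed by Mmp19 (0.93) and Lama4 (0.925). The libraries share treatments, depth and source, so these values describe the libraries. The near-identical copies C1rb and C1s2 had 37 and 30 counts over all libraries, against 17326 for C1ra and 56620 for C1s1.

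**Figure D3:**
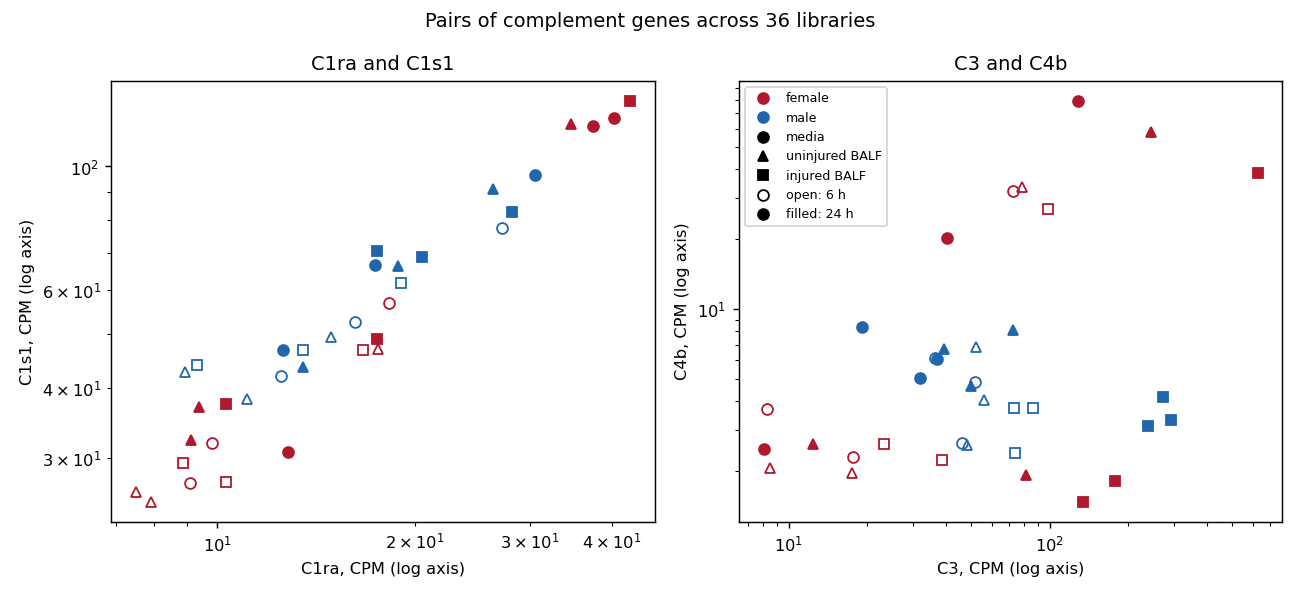
CPM of C1s1 against C1ra (left) and of C4b against C3 (right) in the 36 libraries, both axes log; colour is sex, shape treatment, and filled points are 24 h. C1ra and C1s1 lie along 1 line (r = 0.957), while C4b and C3 (r = 0.378) form a high female set and a low set that spreads along the C3 axis.

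C4b encodes C4, the substrate of C1s, and its level differed more between libraries than between treatments. In media it measured 2.31, 4.28 and 32.2 CPM (lowest, median, highest) at 6 h and 2.50, 7.25 and 78.9 at 24 h. In uninjured BALF the values were 1.97, 3.33 and 33.7, then 1.93, 5.68 and 58.0 CPM. In injured BALF they were 2.24, 3.17 and 26.9, then 1.47, 3.22 and 38.7 CPM. The highest value belonged to the female library numbered 3 in 5 of the 6 groups and to the female library numbered 1 in uninjured BALF at 24 h. The other libraries stayed at 8.39 CPM or below, except female number 2 in media at 24 h at 20.3 CPM.

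With all libraries and no replicate block C4b did not pass the test in any comparison of treatments. Injured minus uninjured BALF was -0.36 ± 0.92 at 6 h (edgeR adjusted p = 0.93) and -0.72 ± 0.90 at 24 h (adjusted p = 0.77), with a 95% interval of -2.58 to 1.13 at 24 h. Without the female uninjured library numbered 1 the difference at 24 h turned to 0.89 (adjusted p = 0.72), and without all libraries numbered 3 it was -2.59 (adjusted p = 0.039). With any single library left out it ran from -2.27 to 0.89. In males at 24 h the injured libraries (3.13, 3.31 and 4.17 CPM) lay below the uninjured ones (4.64, 6.71 and 8.14 CPM). Uninjured BALF minus media at 24 h was -0.35 ± 0.89 (adjusted p = 0.93), and -1.95 (adjusted p = 0.34) without the female uninjured library numbered 1. With any single library left out it ran from -1.95 to 0.44. Injured BALF was higher than media in 0 of 6 libraries of the same sex and number at 6 h and in 0 of 6 at 24 h. The numbers do not pair in these comparisons. Against media at 24 h C4b missed the threshold, and it passed when the female injured library numbered 3 was left out, which made 2 members called with C3. Sardh (r = 0.961), Echdc2 (0.91) and Pcdhgb1 (0.896) had the patterns most like that of C4b over the 36 libraries. The copy C4a, annotated as a processed transcript, had 628 counts against 11594 for C4b, and reads shared between them cannot be placed with certainty.

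Cfb, the protease of the alternative pathway's C3-cleaving enzyme, was close to absent. Its 6 libraries summed to 5, 7 and 15 counts in media, uninjured and injured BALF at 6 h and to 12, 16 and 28 at 24 h. The highest library, female number 3 in injured BALF at 24 h, had 0.416 CPM. Cfb was at 0 in 9 libraries, where 3 counts, the limit a count of 0 allows, would be 0.0834 to 0.152 CPM. No difference was tested at this depth, and intervals and limits cover counting error only.

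Among the inhibitors, Serping1 did not pass the test in any comparison of treatments. It measured 36.6, 43.0 and 60.0 CPM (lowest, median, highest) in media, 31.9, 37.9 and 56.5 in uninjured BALF and 26.0, 38.8 and 59.9 in injured BALF at 6 h. At 24 h it measured 51.1, 69.8 and 88.7, then 28.8, 50.0 and 109, then 24.4, 47.5 and 96.7 CPM. All groups overlapped. Injured minus uninjured BALF was 0.02 ± 0.29 at 6 h (95% interval -0.57 to 0.61) and -0.07 ± 0.29 at 24 h (-0.66 to 0.51), with edgeR adjusted p of 0.99 and 0.94. From 6 to 24 h Serping1 was higher in 6 of 6 libraries of the same sex and number in media, 4 of 6 in uninjured and 5 of 6 in injured BALF. In media the females did not overlap (36.6 to 45.9 against 72.9 to 88.7 CPM), and the males did. The fitted difference in media was 0.951 ± 0.408 in females and 0.174 ± 0.404 in males. Numbers do not pair over time in media or uninjured BALF. The patterns nearest to Serping1 were those of Sod3 (r = 0.908), Mfap2 (0.87) and Fzd1 (0.847).

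Cd55, the membrane regulator, showed a different order at 6 h: its level was highest in uninjured BALF. It measured 4.86, 9.84 and 21.7 CPM (lowest, median, highest) in media, 12.9, 19.6 and 27.2 in uninjured BALF and 9.44, 12.2 and 20.3 in injured BALF. Within each sex the uninjured and media libraries did not overlap, and uninjured was higher in 6 of 6 of the same number, by 1.26 to 2.65 times. The numbers do not pair in this comparison, and 18.4% of all genes tested changed in it by edgeR. The fitted difference was 0.84 ± 0.39 (95% interval 0.03 to 1.65, edgeR adjusted p = 0.14). It passed when the groups compared were fitted alone (0.84, adjusted p = 0.021). Injured minus uninjured BALF at 6 h was -0.56 ± 0.39 (adjusted p = 0.61), and with the replicate numbers as a block -0.58 ± 0.11 (adjusted p = 0.0017), lower in 5 of 6.

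At 24 h Cd55 measured 6.69, 13.8 and 41.9 CPM in media, 12.3, 15 and 91.5 in uninjured BALF and 14.4, 19.6 and 56.1 in injured BALF. The highest libraries were female number 3, number 1 and number 3, as for C4b. Injured minus uninjured BALF was 0.02 ± 0.38 (edgeR adjusted p = 0.99), and without the female uninjured library numbered 1 it was 0.78 (adjusted p = 0.20). That was the highest value with any single library left out, and the lowest was -0.38. In males the injured libraries (18.2, 19.0 and 21.2 CPM) lay above the uninjured ones (12.3, 14.4 and 16.3 CPM). From 6 to 24 h in injured BALF Cd55 was higher in 6 of 6, by 0.90 ± 0.39 (adjusted p = 0.086) and with the block by 0.85 ± 0.11 (adjusted p = 0.00052). In media Cd55 was also higher at 24 h in 6 of 6, by 1.28 to 1.93 times, and in uninjured BALF in 1 of 6. Its nearest patterns were those of the long noncoding RNA Gm15675 (r = 0.896), Elmo1 (0.893) and Fetub (0.859), and the copy Cd55b had 9 counts against 18635.

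**Figure D4:**
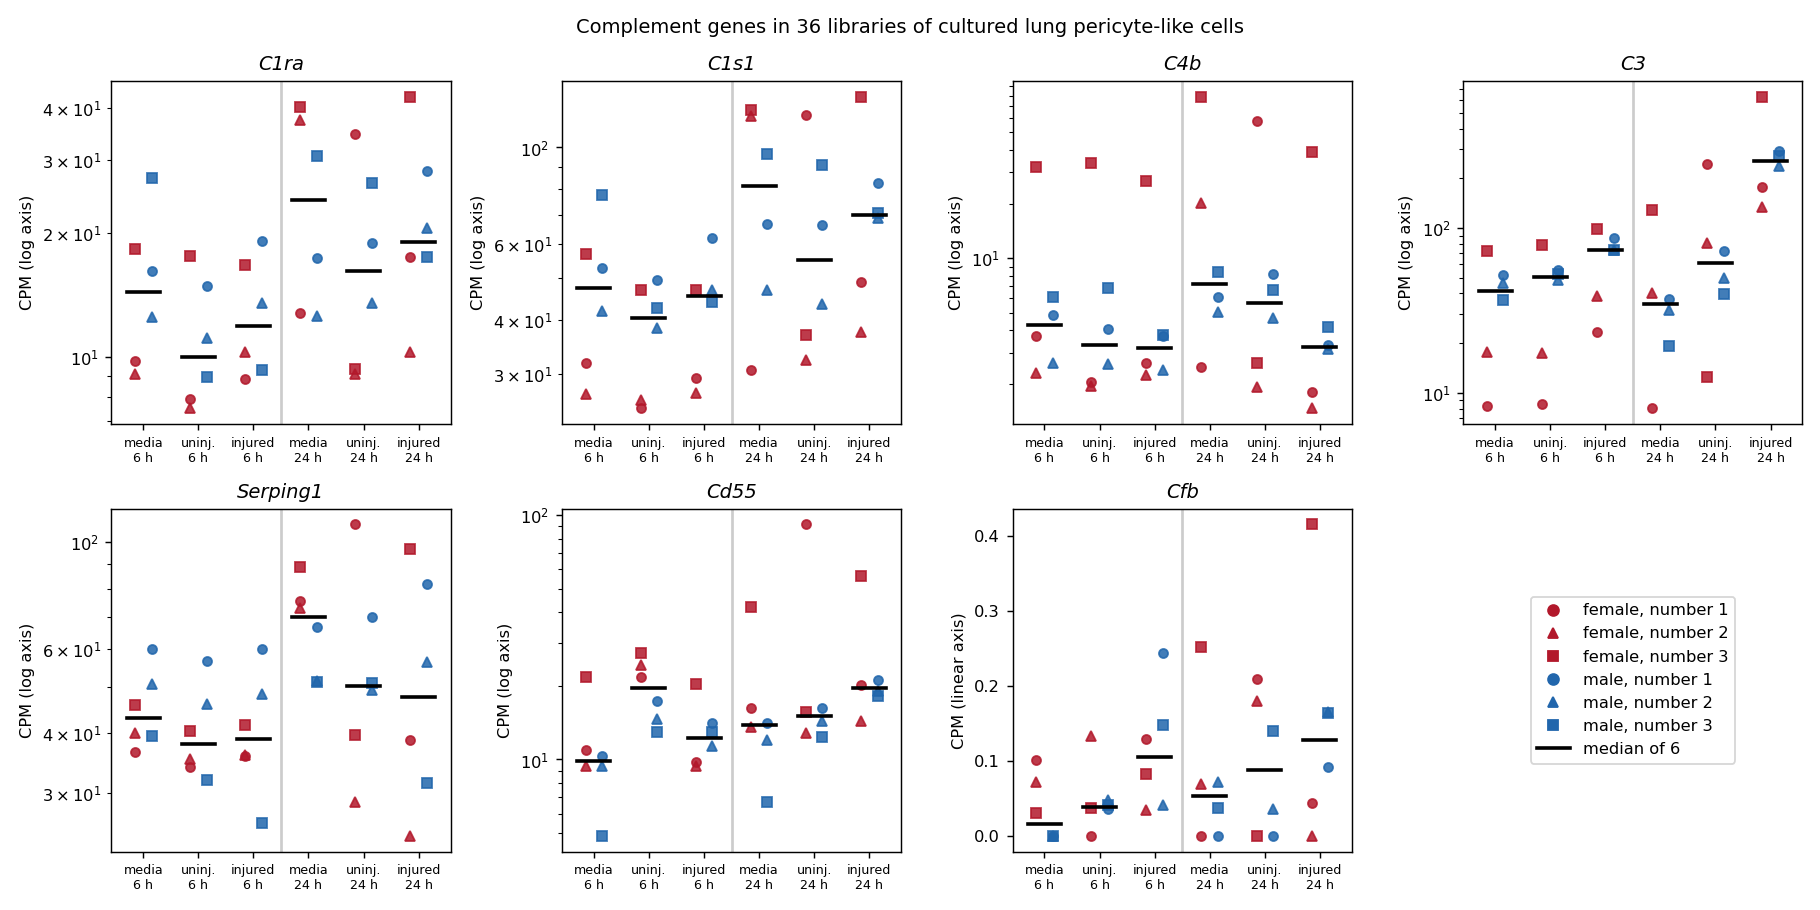
CPM of each of the 7 genes in all 36 libraries by treatment and time (log axes, Cfb on a linear axis); colour is sex, shape the library number, and the bar is the median of 6. C3 in injured BALF at 24 h lies at 134 CPM or above, and for C4b 1 female library stands above the other 5 in every group.

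In the 4 main treatment comparisons no member passed edgeR's threshold. The shares of all genes tested that did were 3.43% for injured against uninjured BALF at 6 h and 4.42% at 24 h, and 18.4% for uninjured BALF against media at 6 h and 0.868% at 24 h. At an unadjusted p under 0.05 the counts were 0, 1 (C3), 1 (Cd55) and 0 of 6, and by DESeq2 0, 1 (C3), 0 and 0. The median log2 difference of the 6 members was 0.08, 0.10, -0.08 and -0.25, where that of all genes tested was -0.00 in each. The comparisons with injured and with uninjured BALF share the uninjured libraries. Uninjured BALF minus media at 24 h gave 0.91 ± 0.60 for C3 (adjusted p = 0.62) and 0.57 ± 0.39 for Cd55 (adjusted p = 0.64), and these values were 0.28 and -0.18 without the female uninjured library numbered 1.

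**Figure D5:**
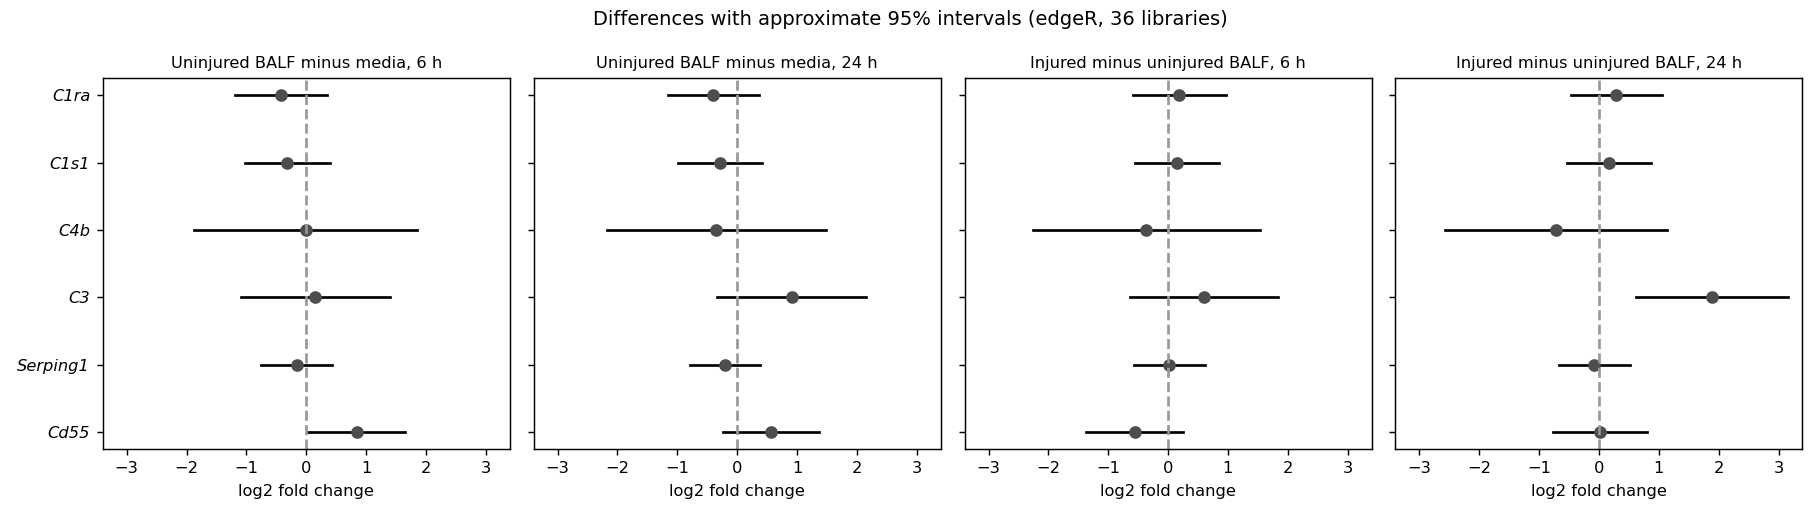
Log2 fold changes of the 6 tested genes with approximate 95% intervals (edgeR, all 36 libraries) for uninjured BALF minus media and injured minus uninjured BALF at 6 and 24 h. The interval lies above 0 for C3 in injured against uninjured BALF at 24 h (0.62 to 3.16) and for Cd55 in uninjured BALF against media at 6 h (0.03 to 1.65); neither passed after adjustment over all genes.

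The wider pathway was followed in 45 other complement genes, of which 24 had enough counts to be tested. In injured against uninjured BALF 0 of 24 changed at 6 h, and at 24 h 1 rose and 1 fell. Masp1, a protease of the lectin pathway, averaged 123 ± 82.7 CPM in uninjured and 57.6 ± 27.4 CPM in injured BALF and fell by 0.99 ± 0.27 on the log2 scale (edgeR adjusted p = 0.031). Itgb2, the shared chain of the leukocyte integrins that serve as complement receptors, averaged 1.95 ± 1.00 and 3.44 ± 1.30 CPM and rose by 0.87 ± 0.25 (adjusted p = 0.036). Neither call held without each library. Masp1 missed the threshold when female number 1 or 2 or male number 3 in injured BALF, or number 3 of either sex in uninjured BALF, was left out (highest adjusted p 0.14). Itgb2 missed it when number 3 of either sex in either group, or female number 2 or male number 1 in uninjured BALF, was left out (highest adjusted p 0.13).

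Uninjured BALF against media changed 1 of these 24 at 6 h and 0 at 24 h. Masp1 averaged 99.8 ± 56.2 CPM in media and 49.6 ± 15.3 CPM in uninjured BALF and fell by 0.90 ± 0.27 (edgeR adjusted p = 0.019). It missed the threshold without male number 3 of either group (adjusted p = 0.053 and 0.081). Injured BALF against media changed 2 of the 24 at 6 h, where 25.2% of all genes tested changed, Masp1 (-1.06 ± 0.27, adjusted p = 0.0043) and Cr1l, a membrane regulator (-0.22 ± 0.08, adjusted p = 0.044). At 24 h 6 of the 24 changed, a share close to the 23.7% of all genes tested. The leukocyte integrin genes Itgb2 (1.38 ± 0.25, adjusted p = 0.00019) and Itgam (1.97 ± 0.59, adjusted p = 0.015) rose. Masp1 (-1.21 ± 0.27, adjusted p = 0.0016), Cd59a (-1.14 ± 0.23, adjusted p = 0.00064), Colec11 (-1.69 ± 0.54, adjusted p = 0.022) and Cr1l (-0.28 ± 0.08, adjusted p = 0.011) fell. Cd59a encodes the inhibitor of the membrane attack complex and Colec11 a lectin that recognises sugars. Cr1l, Itgam, Cd59a and Colec11 were named after their values were seen, and Itgam averaged at most 0.466 ± 0.203 CPM. Itgam missed the threshold without male injured number 2 (adjusted p = 0.057), and Colec11 without any 1 of female number 1 and male numbers 1 and 2 in injured BALF, female number 2 in media or male number 3 in media (highest adjusted p 0.061). Cr1l at 6 h missed it without any 1 of 8 libraries, the most without female number 3 in media (adjusted p = 0.22). Without the 4 libraries of differing description number, Masp1 in injured against uninjured BALF at 24 h and, against media, Cr1l at both times and Itgam and Colec11 at 24 h missed it (adjusted p 0.062 to 0.11). With 1 number of every group left out, each call among the 24 in these comparisons was lost in at least 1 of 3 cases, except that of Itgb2 against media at 24 h. The recognition genes C1qa, C1qb and C1qc, which macrophages are known to make, were low, with C1qb at 1.24 to 2.36 CPM in the group means.

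Transcription factors known to act on complement genes were counted as a list of 8, all tested. In injured against uninjured BALF, where 3.43% of all genes tested changed at 6 h and 4.42% at 24 h, 3 rose at 6 h: Cebpd by 1.71 ± 0.25 (edgeR adjusted p = 5.1e-05), Nfkb1 by 0.96 ± 0.14 (adjusted p = 5.1e-05) and Relb by 0.63 ± 0.13 (adjusted p = 0.0036). At 24 h 2 rose, Nfkb1 by 0.78 ± 0.14 (adjusted p = 0.00088) and Relb by 0.76 ± 0.13 (adjusted p = 0.00069). In uninjured BALF against media, where 18.4% and 0.868% of all genes tested changed, 3 rose at 6 h, Relb by 1.21 ± 0.14 (adjusted p = 5e-07), Cebpb by 1.18 ± 0.21 (adjusted p = 0.00022) and Nfkb1 by 1.15 ± 0.14 (adjusted p = 1.4e-06), and 0 did at 24 h. Each of these calls held without any single library. With 1 number of every group left out, in injured against uninjured BALF Relb (highest adjusted p 0.27) and Cebpd (0.056) at 6 h and Nfkb1 (0.13) and Relb (0.074) at 24 h missed the threshold, and Nfkb1 at 24 h did so with libraries 1 and 2 summed (adjusted p = 0.065). These factors were named after their values were seen. Their part in the C3 result was not tested. Over the 36 libraries the patterns most like that of C3 were those of Tmem176a (r = 0.925), Tmem176b (0.917) and Cp (0.884), the gene of ceruloplasmin.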

How the data were processed

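RNA was sequenced from 36 libraries with a stranded mRNA kit, per the labels' protocols. The authors deposited a table of whole-number counts per gene. STAR 2.5.2b, RSEM 1.2.31, DESeq2 and GRCm38 are named, per the submitters' processing notes, without their roles, so the counts may be rounded estimates in which reads are shared among near-identical genes. Identifiers were matched to GENCODE M21 (99.3% of 48795), which gave symbols, positions and exon lengths.

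Tests used edgeR 4.0.16 in R 4.3.3 (quasi-likelihood, TMM factors 0.874 to 1.092, its expression filter, 12 groups of treatment, sex and time, 24 residual degrees of freedom, Benjamini-Hochberg over 15901 genes). Standard errors are the fold change over the square root of F. The common biological coefficient of variation was 22.5%. On simulated data (injured against uninjured BALF, 6 h, 15260 genes) 30, 41, 50 and 50 of 50 genes changed by 1.5, 2, 4 and 8 times were recovered, with 8 false calls. The changed genes were drawn at random from expressed genes, and the libraries were simulated as independent, with none set apart. The recovery therefore does not give the power for the members, whose libraries spread more widely in several cases.

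Same-numbered libraries were taken as paired where 6 of 6 correlations of their deviations exceeded 0.1. This held for injured against uninjured BALF at 6 h and for 24 against 6 h in injured BALF. The blocked fit used the groups compared alone and was added after the data were examined.

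The 7 genes, the gene lists and the tests were chosen with earlier results of these data known. All 7 were named, with other complement genes that passed in injured against uninjured BALF or in uninjured BALF against media, and the 3 genes of highest correlation with each (log2 CPM, prior count 2). Alternatives were DESeq2 1.42.0, other scalings, filters and thresholds, blocks, other fits, and leaving out libraries.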

Additional observations from a re-analysis of the deposited data

Results flagged for a closer look

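Of 42 groups of 6 libraries (7 genes in 6 groups), 15 held 1 library whose gap to its nearest neighbour took an unusually large part of the group's range (above Dixon's 95% critical value). About 1 group in 20 would do so if the values were independent and normally distributed. CPM were used on the linear scale, where high values stand out more than on a log scale, and each group mixes the sexes. The genes and libraries are also not independent, so the rate does not apply as it stands. The rule was not run on log values. All 15 were high values in female libraries. C4b was far above the other 5 libraries in each group, in female number 3 at 32.2 CPM (media), 33.7 (uninjured BALF) and 26.9 (injured BALF) at 6 h, at 78.9 (media) and 38.7 (injured BALF) at 24 h, and in female number 1 at 58.0 (uninjured BALF) at 24 h. C3 was so at 24 h, at 128 CPM in media and 628 in injured BALF in female number 3, and at 244 in uninjured BALF in female number 1. Cd55 was so in female number 3 at 21.7 CPM in media at 6 h, 41.9 in media and 56.1 in injured BALF at 24 h, and in female number 1 at 91.5 in uninjured BALF at 24 h. Cfb was so at 0.134 CPM in female number 2 in uninjured BALF at 6 h and at 0.253 in female number 3 in media at 24 h, each from few counts.

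Apart from the Cfb value of female number 2, each of these values fell in a library whose summed smooth muscle markers were below those of both other females of its group. In injured BALF at 24 h the sum was 5400 CPM in female number 3, against 7630 and 7990 in females 1 and 2. Mesothelial markers in the same libraries summed above both other females of their group, at 61.9 to 98.2 CPM against 23.5 to 53.1. Endothelial markers did so too, except in media at 24 h, at 121 CPM in female number 3 and 122 in number 1. The part of these sums in the values was not tested.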

How the results depend on the processing

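The alternatives were run on 1522 differences of the 7 genes and other named genes. 1339 kept their direction and side of the threshold, 104 lost the call, 22 gained it and 57 changed sign, and 8 of those 57 came from settings other than leaving out libraries. The count of members changed moved as follows. With a replicate block fitted to the groups compared alone, it was 2 in injured against uninjured BALF at 6 h and 1 in uninjured BALF against media at 6 h. In injured BALF against media it was 2 (C3 and C4b) at 6 h and 3 (with Cd55) at 24 h. In 24 against 6 h it was 3 in media and 4 in injured BALF. In the same order, these blocked fits called 23.7%, 30.8%, 37%, 19%, 11.6% and 39.2% of all genes tested. With a replicate block over all groups it was 1 in uninjured BALF against media at 6 h (Cd55) and 2 in 24 against 6 h in uninjured BALF (C1s1 and C3). Only 2 of these comparisons have paired numbers by the rule used. With the groups compared fitted alone it was 1, 1 and 3 in uninjured BALF against media at 6 h, 24 against 6 h in media and 24 against 6 h in injured BALF. In injured against uninjured BALF at 24 h it was 1 without the low-count filter and 1 by DESeq2. In 24 against 6 h in injured BALF it was 0 at a threshold of 0.01 and 0 with libraries 1 and 2 summed. Leaving out libraries gave 0 to 1 in injured against uninjured BALF and in uninjured BALF against media at 24 h, 0 to 2 in injured BALF against media at 24 h, 0 to 2 in 24 against 6 h in uninjured BALF and 0 to 4 in injured BALF. The 2 single libraries behind the calls in uninjured BALF were female number 2 at 24 h and female number 3 at 6 h (C1s1 passed without either), and female number 3 at 6 h behind a count of 2 in injured BALF (Cd55 passed).

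Signs changed in several differences (log2 scale). Some of these were not small, as the ranges of C4b, C3 and Cd55 at 24 h below show. For injured minus uninjured BALF at 6 h, Serping1 was -0.02 with libraries 1 and 2 summed. At 24 h Cd55 was -0.00 with upper quartile scaling, -0.05 with the replicate block, -0.13 with sex ignored and -0.02 without the 4 libraries of differing description number. For uninjured BALF minus media C4b was 0.14 without those 4 libraries and 0.05 with libraries summed at 6 h, and 0.19 with the replicate block at 24 h. Leaving out 1 library, or 1 number of every group, also turned signs. For injured minus uninjured BALF at 6 h the ranges were -1.42 to 0.96 and -0.46 to 0.06 (C4b), and -0.11 to 0.16 and -0.02 to 0.06 (Serping1). At 24 h they were -0.09 to 0.77 and -0.03 to 0.73 (C1ra), -0.19 to 0.62 and -0.16 to 0.68 (C1s1), -2.27 to 0.89 and -2.59 to 1.26 (C4b), -0.45 to 0.33 and -0.44 to 0.33 (Serping1), and -0.38 to 0.78 and -0.59 to 0.90 (Cd55). For uninjured BALF minus media at 6 h they were -1.34 to 1.04 and -0.36 to 0.07 (C4b), and -0.56 to 0.82 and 0.03 to 0.20 (C3). At 24 h they were -0.72 to -0.13 and -0.93 to 0.00 (C1s1), -1.95 to 0.44 and -2.33 to 0.80 (C4b), 0.28 to 1.55 and -0.01 to 1.79 (C3), and -0.18 to 0.92 and -0.22 to 1.03 (Cd55). For 24 against 6 h they were -0.54 to 0.77 and 0.05 to 0.18 (C3, media), 0.23 to 1.59 and -0.09 to 1.94 (C3, uninjured BALF), and -1.28 to 1.33 and -0.23 to 0.37 (C4b, injured BALF). C3 kept its sign in injured BALF against media at 24 h (2.31 to 3.46, adjusted p 0.0001 to 0.074), in 24 against 6 h in injured BALF (1.67 to 2.56, adjusted p 0.0016 to 0.13) and in injured against uninjured BALF at 24 h (1.04 to 2.77, adjusted p 0.021 to 0.44). The causes were not tested. Depth limits Cfb, which was not tested for differences.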
